A study of Mus musculus with 38 samples.

Results

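Whole bone marrow of mice given zoledronic acid and granulocyte colony-stimulating factor (G-CSF) was compared with whole bone marrow of mice given zoledronic acid alone, a comparison that asks what G-CSF changes in marrow already given zoledronic acid. The combined group held 2 libraries (replicates 1 and 3) and the zoledronic acid group 2 (replicates 2 and 3), so 4 of the 38 libraries of the series entered the contrast. They were chosen by their labelled treatment. The 3 marrow libraries of mice given G-CSF alone entered the same fit, though not the contrast, for its estimate of spread. They also took part in the filter on low counts and in scaling. The 2 untreated marrow libraries were left out of the fit. All were labelled C57BL/6, and the growth protocol names C57BL/6J females aged 6 to 7 weeks. Zoledronic acid was given to both groups at 100 µg/kg into the peritoneum. In the combined group, 3 daily injections of 50 µg/kg recombinant human G-CSF followed, starting 2 days after the zoledronic acid. The labels call the libraries biological replicates but do not tie them to single animals. The p-values below therefore rest on library-to-library spread, which may be technical.

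Zoledronic acid is a bisphosphonate that binds to bone and, once taken up by osteoclasts, blocks farnesyl diphosphate synthase, an enzyme of the mevalonate pathway that supplies lipid anchors for small GTPases. G-CSF acts through the receptor encoded by Csf3r on cells of the granulocyte lineage. It drives the production of neutrophils and moves blood stem cells from marrow into blood.

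The combined libraries held 8438679 and 7083851 counts and the zoledronic acid libraries 8288159 and 9234144 counts. Globin genes took 23.5% and 22.01% of the summed TPM (transcript abundance per length) in the combined libraries, against 35.5% and 32.5% in the zoledronic acid libraries. Erythroid and neutrophil genes were abundant in all 4 libraries, which fits the label of whole marrow. Hbb-bs, adult beta globin, had 75305 and 78623 TPM in the combined libraries and 153591 and 144718 TPM in the zoledronic acid libraries. On log2 counts, the Pearson correlation across genes was 0.962 between the combined libraries, 0.951 between the zoledronic acid libraries and 0.899 to 0.906 across the groups.

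The libraries also divided in genes that differ between mouse strains, although all carry one strain label. H2-Ea-ps is the MHC class II gene that C57BL/6 mice do not transcribe because of a promoter deletion. It had 3.28 and 5.01 TPM in the combined libraries and 0 TPM in both zoledronic acid libraries. Ifi202b, an interferon-inducible gene with very low expression in C57BL/6 mice, had 4.28 and 11.2 TPM in the combined libraries and 0 in both zoledronic acid libraries. Nnt, the mitochondrial transhydrogenase that C57BL/6J mice carry in a truncated form, had 72.7 and 69.6 CPM (counts scaled to library size) in the combined libraries against 22.9 and 23.7 CPM in the zoledronic acid libraries. The 3 libraries of G-CSF alone stood with the combined libraries at all 3 genes and the 2 untreated libraries had 0 TPM of H2-Ea-ps and Ifi202b. Genetic background and treatment cannot be told apart in these marrow libraries, and every difference below carries this limit.

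In edgeR's quasi-likelihood test with Benjamini-Hochberg adjustment, 707 of the 14731 genes tested (4.80%) passed an adjusted p of 0.05. Of these, 317 (2.15%) were higher and 390 (2.65%) lower in the combined group. At an unadjusted p under 0.05, 2783 genes passed. Without combined replicate 1 the count was 285, without combined replicate 3 it was 271, without G-CSF replicate 2 it was 460 and without zoledronic acid replicate 2 it was 327. On log2(TPM + 1), tested with limma, all genes moved together by a median of 0.52, and 5734 genes (38.9%) were higher and 277 (1.88%) lower. After each library was centred on its own median, the split was 344 higher and 1351 lower. The libraries of the groups did not overlap in CPM for 7428 genes (50.4%).

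**Figure D1:**
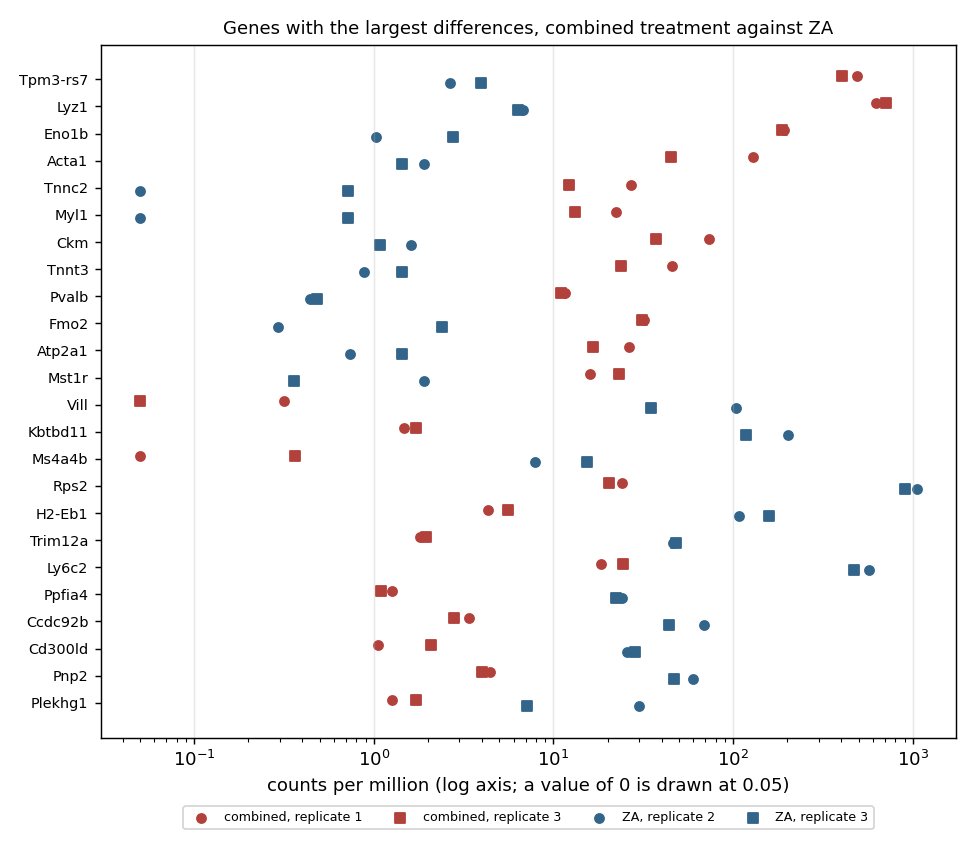
CPM (log axis) of the 24 genes with the largest differences among those called and expressed in both groups. Red points are the combined libraries and blue points the zoledronic acid (ZA) libraries, with 1 point per library and no averaging. The rule took only called genes whose libraries did not overlap between the groups, so red and blue points are apart by selection.

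Genes present on one side only were set apart. Such a gene had at most 0.1 TPM in both libraries of one group and more than that in both libraries of the other. The rule took 816 genes found in the combined libraries only and 378 found in the zoledronic acid libraries only. Of these, 311 had enough counts to be tested and 120 (38.6%) were called, a share that the rule itself favours. Outside the genes set apart, 587 of 14420 genes (4.07%) were called, 221 higher (1.53%) and 366 lower (2.54%). Among the 143 genes with at least 1 TPM in both combined libraries, 71 were pseudogenes, 36 small RNA genes and 24 protein-coding. Among the 134 with at least 1 TPM in both zoledronic acid libraries, 94 were small RNA genes, 18 pseudogenes and 6 protein-coding. Of the strong genes, 69 of 143 and 17 of 134 split all 9 marrow libraries the same way, with G-CSF libraries beside the combined ones and untreated libraries beside the zoledronic acid ones.

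The most abundant protein-coding gene found in the combined libraries only was Fam166a (chromosome 2), a poorly characterised gene with high expression in testis. It had 121 and 151 TPM in the combined libraries and 0 in both zoledronic acid libraries, from 96 and 0 counts, a level at least 27.4-fold higher by a floor of 3 counts over the group. Gm10184 (chromosome 17) had 59.1 and 65.2 TPM in the combined libraries against 1.6e-05 and 0.00165 TPM in the zoledronic acid libraries, at least 937-fold higher. BC117090, a stefin-like gene, followed with 25.4 and 26.9 TPM in the combined libraries and 0 in both zoledronic acid libraries, at least 33.7-fold higher. H2-Q2, a class I gene of the H2 complex on chromosome 17, had 10.6 and 11.5 TPM in the combined libraries against 0 and 0.0488 TPM in the zoledronic acid libraries. With 325 counts against 1, its ratio was 278 (95% counting interval 49.6 to 11032). AK157302 had 8.08 and 9.06 TPM in the combined libraries and 0.0645 and 0.0577 TPM in the zoledronic acid libraries. Ifi202b was the sixth, at least 101-fold higher. These floors and intervals cover counting error only.

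On the other side, Eps8l1, an adaptor that links signalling receptors to actin, had 0 TPM in both combined libraries against 14.3 and 16.5 TPM in the zoledronic acid libraries. It was at least 172-fold lower in the combined group. Gvin1, a very large interferon-inducible GTPase, had under 0.1 TPM in both combined libraries against 2.38 and 1.51 TPM in the zoledronic acid libraries, at least 279-fold lower. Stfa1, a stefin of neutrophils that inhibits cathepsins, had 0 TPM in both combined libraries against 8.37 and 11.0 TPM, at least 29.6-fold lower. Baiap3, a regulator of vesicle transport, had 0 TPM in both combined libraries against 2.03 and 2.78 TPM, at least 37.3-fold lower. Cd3e, a chain of the T cell receptor complex, had 0.0474 and 0 TPM in the combined libraries against 1.10 and 1.20 TPM in the zoledronic acid libraries. Gm11032 had 31.8 and 19.2 TPM in the zoledronic acid libraries and 0 in both combined libraries, but rested on 5 counts and was not tested.

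Near-identical copies were more frequent among called genes than among all genes tested. A copy was counted where it was a gene with a transcript at least 95% identical over 80% of the shorter transcript and at least 200 bases. Of the 707 called genes, 199 (28.1%) had such a copy in the count table, against 1732 of 14731 genes tested (11.8%). Among the 199, the summed level of gene and copies lay within 2-fold between the groups for 134 (67.3%), and the sum moved opposite to the gene alone for 68. The median absolute log2 difference was 4.10 for these genes alone and 0.53 for the sums (0.1 CPM was added to each mean before the ratio of sums). Pseudogenes were called in 131 of 685 cases (19.1%), 107 of them higher, and protein-coding genes in 480 of 12682 (3.78%), 182 of them higher. Copies that moved the other way were not counted, and an abundant copy that does not change also shrinks a summed difference. Whether reads or transcripts moved between copies was not tested.

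Rps2, which encodes a protein of the small ribosomal subunit, had 24 such copies in the table. The gene itself had 24.02 and 20.5 CPM in the combined libraries against 1052 and 909 CPM in the zoledronic acid libraries (log2 difference −5.46 ± 0.45 SE, edgeR adjusted p = 0.000616). Its processed pseudogene Rps2-ps10, 99.5% identical, had 1305 and 1092 CPM in the combined libraries against 6.76 and 5.29 CPM in the zoledronic acid libraries. Gene and 24 copies together had 1354 and 1140 CPM in the combined libraries and 1075 and 932 CPM in the zoledronic acid libraries. Eno1b, an enolase copy, had 192 and 186 CPM in the combined libraries against 1.03 and 2.77 CPM in the zoledronic acid libraries. Eno1, the glycolytic enolase it copies, had 216 and 217 CPM in the combined libraries against 581 and 467 CPM in the zoledronic acid libraries. With a further copy, Gm4735, the enolase sum was 496 and 507 CPM in the combined libraries and 583 and 470 CPM in the zoledronic acid libraries, and the groups overlapped. Kpna2, an importer of nuclear proteins, shared sequence at 100% identity with Gm10184 and had 37.6 and 56.1 CPM in the combined libraries against 244 and 209.5 CPM in the zoledronic acid libraries. The summed level of Gm10184 and its 5 copies was 307 and 299.5 CPM in the combined libraries and 290.1 and 234 CPM in the zoledronic acid libraries.

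**Figure D2:**
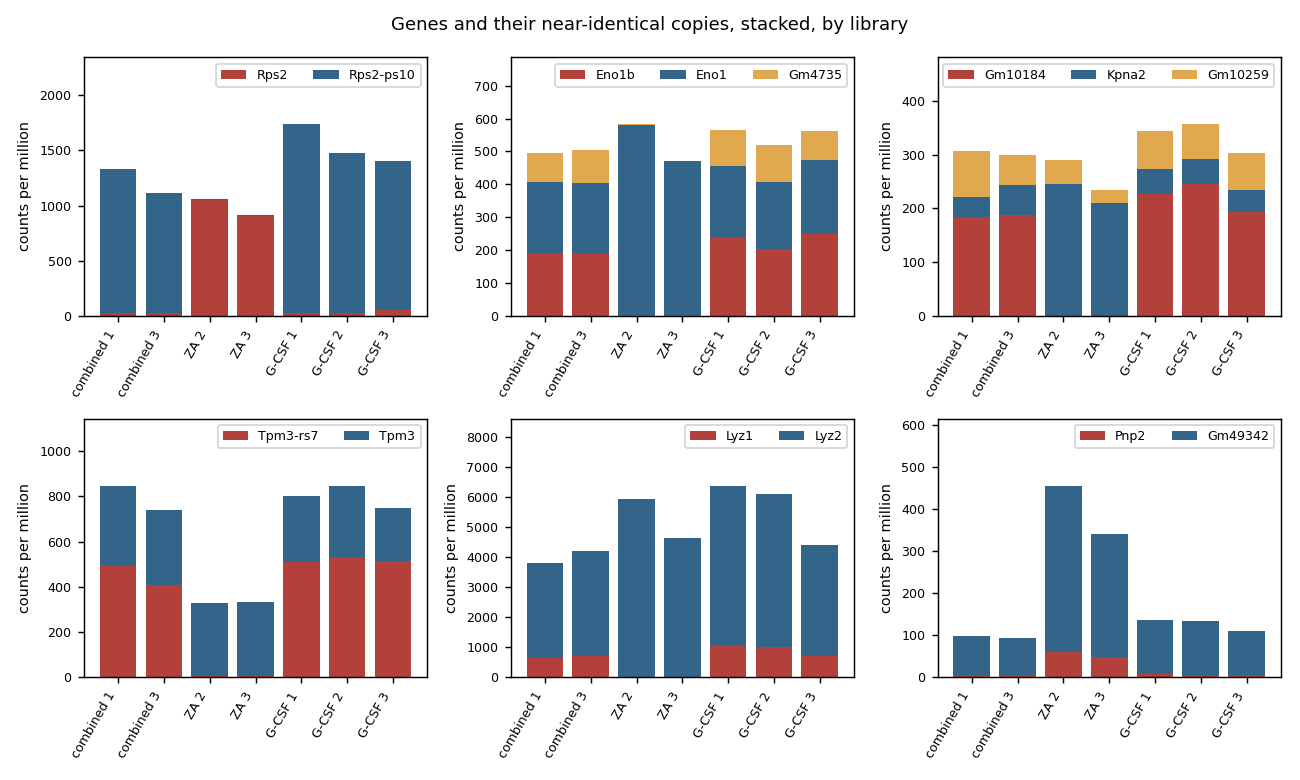
CPM of 6 genes, each stacked on its near-identical copies, by library (combined, zoledronic acid, then G-CSF alone). For Rps2, Eno1b and Gm10184 the colours change places between combined and zoledronic acid libraries while the bar heights stay within 2-fold; for Tpm3-rs7 and Pnp2 the bar heights differ too.

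Lyz1 and Lyz2 are neighbouring lysozyme genes on chromosome 10. Lyz2 is the lysozyme of neutrophils and macrophages, and Lyz1 that of the Paneth cells of the gut. Their coding sequences (GENCODE vM21 transcripts) have 444 bases each and differ at 22 of them. Coding bases 61 to 120 are shown because 9 of the differences lie there, marked by capitals.
Lyz1: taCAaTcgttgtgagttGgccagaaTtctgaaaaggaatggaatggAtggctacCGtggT
Lyz2: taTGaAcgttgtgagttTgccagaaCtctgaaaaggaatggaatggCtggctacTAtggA
Lyz1 had 622 and 706 CPM in the combined libraries against 6.76 and 6.37 CPM in the zoledronic acid libraries (log2 difference 6.66 ± 0.28 SE, edgeR adjusted p = 9.51e-06). Lyz2 had 3174 and 3480 CPM in the combined libraries and 5920 and 4631 CPM in the zoledronic acid libraries, and missed the threshold (log2 difference −0.67 ± 0.22, edgeR adjusted p = 0.153). The sum was 3796 and 4186 CPM in the combined libraries and 5927 and 4637 CPM in the zoledronic acid libraries. Tpm3-rs7, a copy of the tropomyosin gene Tpm3, had 493 and 406 CPM in the combined libraries against 2.65 and 3.97 CPM in the zoledronic acid libraries, the largest rise among genes not set apart and named by the rule (log2 difference 7.06 ± 0.24, edgeR adjusted p = 3.99e-06). Tpm3 itself had 355 and 333 CPM in the combined libraries and 327 CPM in both zoledronic acid libraries, so here the sum was also higher in the combined group.

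Other large decreases fell on genes with no such copy in the annotation. Vill, a villin-like actin-binding protein, had 0.317 and 0 CPM in the combined libraries against 104 and 35.1 CPM in the zoledronic acid libraries (log2 difference −8.58 ± 0.89, edgeR adjusted p = 0.00206). Kbtbd11, a kelch-repeat protein of haematopoietic cells, had 1.48 and 1.71 CPM in the combined libraries against 202 and 117 CPM in the zoledronic acid libraries (−6.64 ± 0.65, edgeR adjusted p = 0.00158). Its 3 libraries of G-CSF alone lay between, at 20.3 to 60.2 CPM. Trim12a, a member of the antiviral Trim family, had 1.80 and 1.95 CPM in the combined libraries against 46.5 and 48.2 CPM in the zoledronic acid libraries. The remaining decreases among the 12 named were Ms4a4b, Ppfia4, Ccdc92b, Cd300ld, Pnp2 and Plekhg1, by 3.63 to 5.98 on the log2 scale, beside H2-Eb1 and Ly6c2 described below. Pnp2, a purine nucleoside phosphorylase gene, does have a copy in the table, and the log2 ratio of the summed levels was −2.05, against −3.65 for Pnp2 alone. Of the 24 named genes, 20 kept their call in all 7 fits that each left out 1 library. Tnnc2 and Myl1 lost it without combined replicate 1, Fmo2 was called in 4 of 7 fits and Plekhg1 in 3 of 7. Fmo2, a flavin monooxygenase, and Mst1r, the receptor of macrophage-stimulating protein, were the named increases outside the copies and the muscle genes. Fmo2 had 32.1 and 31.2 CPM in the combined libraries against 0.294 and 2.40 CPM, and Mst1r 16.0 and 23.3 CPM against 1.91 and 0.361 CPM in the zoledronic acid libraries.

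Genes of skeletal muscle fibres were higher in the combined libraries. Of 12 muscle genes tested, 10 rose and none fell, where 2.15% of all genes rose and 2.65% fell. Those shares over all genes also apply to the counts of the lists below. The muscle list median was 4.93 on the log2 scale against 0.0033 for all genes tested. Acta1, skeletal muscle actin, had 129 and 44.9 CPM in the combined libraries against 1.91 and 1.44 CPM in the zoledronic acid libraries (log2 difference 5.70 ± 0.59, edgeR adjusted p = 0.00184). Ckm, muscle creatine kinase, had 73.4 and 37.3 CPM in the combined libraries against 1.62 and 1.08 CPM (5.37 ± 0.57, edgeR adjusted p = 0.00184). Summed over the list, the combined libraries had 408 and 208 CPM, the zoledronic acid libraries 23.96 and 18.2 CPM and the libraries of G-CSF alone 35.7 to 65.9 CPM. Combined replicate 1 was above combined replicate 3, and every library of the other groups was lower. Mylpf and Mb, a myosin light chain and myoglobin, missed the threshold. These are markers of another tissue, and their part in the other results was not tested. The precursor table described last holds 2 libraries labelled as runs of zoledronic acid marrow replicate 2. Across genes, the first matched the library compared here (Pearson r of 0.9993 on log2 TPM). The one labelled as the second run was no closer to it (0.949) than to zoledronic acid replicate 3 (0.953), so it did not behave as a further run of that library. In it Acta1 had 40.1 TPM and Ckm 40.0 TPM, against 0.519 and 0.463 TPM in zoledronic acid replicate 2 as compared here. In the same library Fam166a had 119 TPM, while Gm10184, H2-Ea-ps and Ifi202b stayed at 0 and Lyz1 at 1.09 TPM.

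Interferon-stimulated genes were lower in the combined libraries. They are switched on by type I interferon, and many encode antiviral proteins. Of 27 tested, 15 fell and none rose, with 26 below 0 and a list median of −1.87 on the log2 scale. Ifi202b, an interferon-inducible gene that rose, was placed among the strain-variable genes and is not among the 27. The summed level of the 27 was 492 and 593 CPM in the combined libraries against 2556 and 1940.5 CPM in the zoledronic acid libraries. The libraries of G-CSF alone had 680 to 895 CPM. On log2(TPM + 1) the list median was −1.06 where all genes moved by 0.52, and after centring it was −1.67. Without combined replicate 1 or without zoledronic acid replicate 2, 7 members were called.

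Rsad2, the radical SAM enzyme viperin, was the most abundant of them. It had 221 and 189 CPM in the combined libraries against 1208 and 874 CPM in the zoledronic acid libraries (log2 difference −2.34 ± 0.21, edgeR adjusted p = 0.000703). Irf7, the transcription factor that amplifies interferon production, had 16.8 and 19.6 CPM in the combined libraries against 148 and 104 CPM (−2.79 ± 0.25, edgeR adjusted p = 0.000616). Oas3, which makes oligoadenylates that activate an RNA-degrading enzyme, had 12.3 and 17.2 CPM in the combined libraries against 172 and 133 CPM (−3.37 ± 0.29, edgeR adjusted p = 0.000484). Isg15, a ubiquitin-like modifier, had 15.9 and 16.2 CPM in the combined libraries against 193 and 119 CPM (−3.28 ± 0.49, edgeR adjusted p = 0.0106). Its call was lost without either combined library or without zoledronic acid replicate 2. Rsad2, Irf7, Oas3, Ifit1, Oas1a and Gvin1 kept theirs in all 7 such fits. Gvin1 has a copy of 99.97% identity, Gm4070, and the sum over Gvin1 and its 3 copies was 28.8 and 63.6 CPM in the combined libraries against 74.4 and 99.3 CPM in the zoledronic acid libraries.

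**Figure D3:**
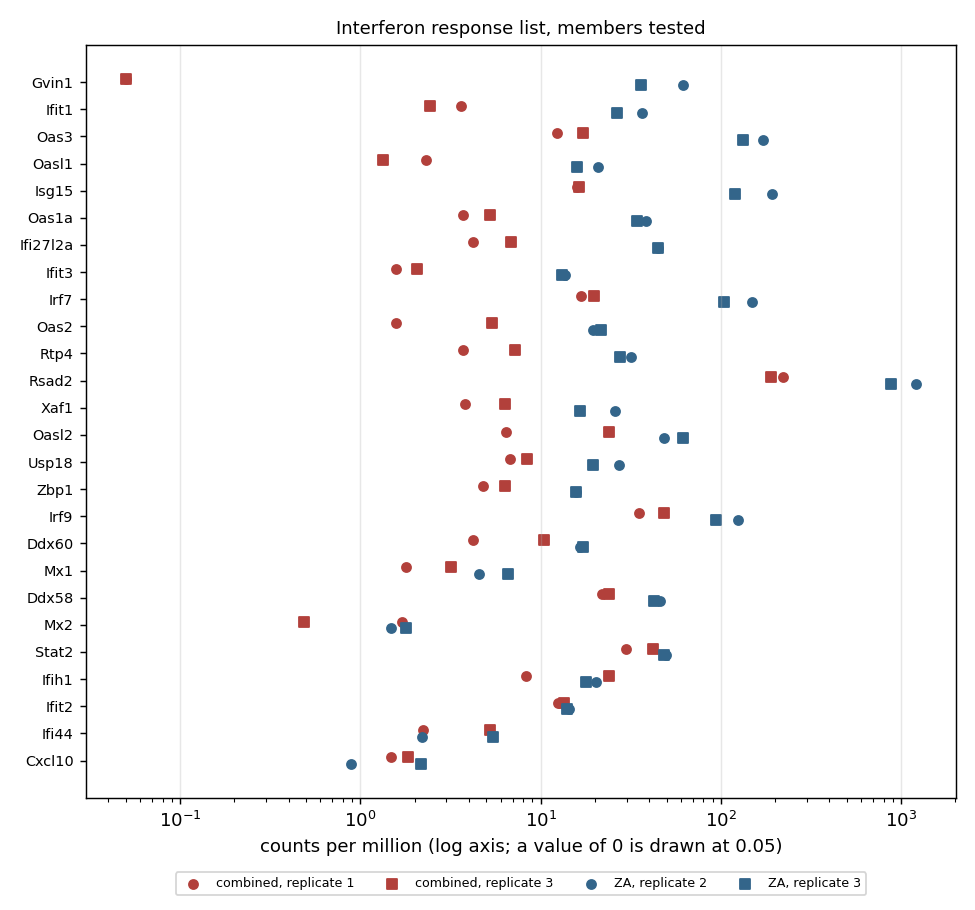
CPM (log axis) of 26 of the 27 interferon-stimulated genes tested, from the largest decrease at the top. Red points are combined libraries and blue points zoledronic acid (ZA) libraries. Red points lie left of blue points for the upper genes, and the groups mingle for the bottom genes such as Ifi44 and Cxcl10.

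Not every member differed. Ifit2, an antiviral protein of the same family as Ifit1, had 12.5 and 13.4 CPM in the combined libraries and 14.4 and 13.9 CPM in the zoledronic acid libraries. Irf9, a transcription factor of the interferon response, fell by 1.39 on the log2 scale (edgeR adjusted p = 0.00774), a call lost without combined replicate 1 or zoledronic acid replicate 2.

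Promoters of 10 of the 15 genes that fell were in the RefSeq table (GRCm38.p6). The 250 bases before the start were searched on both strands for GAAANNGAAA, the core of the interferon-stimulated response element, with overlapping matches allowed. It was present in 6 of these 10 (60%), in 3 of 8 promoters of list members tested and not called (37.5%) and in 978 of all 32851 promoters (2.98%). The list was chosen from genes known to respond to interferon, so its shares are a description, and a match is not a measured site. Stretches around the matches are shown for the 4 genes that had a match and kept their call in all 7 fits that left out a library, with the matches in capitals, on the strand of the gene.
Rsad2 at chr12:26456548-26456587, minus strand: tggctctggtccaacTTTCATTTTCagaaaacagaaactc
Ifit1 at chr19:34640770-34640828, plus strand: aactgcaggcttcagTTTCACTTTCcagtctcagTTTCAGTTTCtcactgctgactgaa
Oas1a at chr5:120907526-120907560, minus strand: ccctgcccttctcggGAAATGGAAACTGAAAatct
Oas3 at chr5:120777710-120777749, minus strand: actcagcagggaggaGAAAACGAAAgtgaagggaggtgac
Oas1a held 2 overlapping matches, Ifit1 held 2 apart from each other and Rsad2 and Oas3 held 1 each. The match nearest the start began 14 bases before it in Oas1a, 75 in Oas3, 85 in Ifit1 and 120 in Rsad2.

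Genes of the H2 complex on chromosome 17, which present peptides to T cells, went both ways. Of 18 class I genes tested, 1 rose and 4 fell, and of 11 class II genes, 1 rose and 2 fell. H2-Q2, the class I gene set apart above, is not among the 18. It was higher in the combined libraries, with 18.4 CPM in both against 0 and 0.12 CPM in the zoledronic acid libraries. Over all genes tested, 2.15% rose and 2.65% fell. H2-Eb1, a class II beta chain, had 4.34 and 5.61 CPM in the combined libraries against 108 and 158 CPM in the zoledronic acid libraries (log2 difference −4.74 ± 0.31, edgeR adjusted p = 0.00012). H2-Aa, the alpha chain of the other class II molecule, had 153 and 133 CPM in the combined libraries and 123 and 159 CPM in the zoledronic acid libraries, where the groups overlapped (edgeR adjusted p = 0.97). H2-Ab1, its beta chain, had 99.0 and 90.2 CPM in the combined libraries against 121 and 171 CPM and missed the threshold (edgeR adjusted p = 0.14). The class II gene that rose was H2-Ea-ps.

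H2-T23, a nonclassical class I gene read by natural killer cells, had 35.7 and 42.6 CPM in the combined libraries against 240.2 and 219 CPM in the zoledronic acid libraries (−2.55 ± 0.18, edgeR adjusted p = 0.000184). H2-T22 and H2-Q10 fell by 3.10 and 2.45, and H2-Q7 by 1.25, with H2-Q7 called in 1 of 7 fits that left out a library. H2-Bl rose, with 50.7 and 55.2 CPM in the combined libraries against 0.147 and 0.481 CPM (7.27 ± 0.32, edgeR adjusted p = 1e-05). The classical genes H2-K1 and H2-D1 missed the threshold, at −0.20 ± 0.16 and 0.64 ± 0.16. Chromosome 17 held 56 calls among 726 genes tested (7.71%), against 4.80% over all, but chromosome 12 (7.59%) and chromosome 1 (6.81%) were close to it.

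Neutrophil genes are given by granule. Genes of the primary granules, made at the promyelocyte stage, had 0 rises and 1 fall among 8 tested, and Mpo, myeloperoxidase, had 1503 and 1289 CPM in the combined libraries and 1286 and 1273 CPM in the zoledronic acid libraries (edgeR adjusted p = 0.785). Genes of the later secondary and tertiary granules had 0 rises and 5 falls among 17, where 2.65% of all genes fell. Their list median was −0.48. The difference between the granule lists was not tested, and 3 of the 5, Camp, Mmp9 and Padi4, were called in only 2 of 7 fits that left out a library. On log2(TPM + 1), where 38.9% of all genes were higher, the later granule list had 4 members higher and 2 lower. Chil3, a chitinase-like protein of developing neutrophils and macrophages, had 545 and 429.7 CPM in the combined libraries against 2132 and 1751 CPM in the zoledronic acid libraries (−1.99 ± 0.19, edgeR adjusted p = 0.000904). Itgb2l, a beta integrin of neutrophil precursors, had 23.9 and 35.6 CPM in the combined libraries against 225 and 198 CPM (−2.83 ± 0.26, edgeR adjusted p = 0.000781). Camp, the cathelicidin peptide, had 1406 and 1233 CPM in the combined libraries against 2884 and 3354 CPM (−1.24 ± 0.24, edgeR adjusted p = 0.0282). Ltf, lactoferrin, had 4136 and 3851 CPM in the combined libraries against 5321 and 4263 CPM and missed the threshold (edgeR adjusted p = 0.487).

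Of 16 genes of mature neutrophils, 1 rose and 5 fell, and on log2(TPM + 1) 4 were higher and 1 lower. Each of the 5 was called in at most 4 of 7 fits that left out a library. S100a8, a subunit of calprotectin, had 2701 and 3177 CPM in the combined libraries against 7745 and 8333 CPM in the zoledronic acid libraries (−1.45 ± 0.29, edgeR adjusted p = 0.0302). S100a9, its partner, missed the threshold at −1.09 ± 0.28 (edgeR adjusted p = 0.0669). The calls on Camp and S100a8 were lost without either combined library, either zoledronic acid library or G-CSF replicate 2, while Chil3 and Itgb2l kept theirs in all 7 fits. BC100530, a stefin, was the member that rose, and Stfa1 was among those that fell. They are copies of each other, and the sum of Stfa1 and BC100530 was 23.4 and 25.8 CPM in the combined libraries against 6.17 and 9.02 CPM in the zoledronic acid libraries. In whole marrow, fewer cells of a type and less RNA per cell cannot be told apart. The summed level of the mature neutrophil list was 10063 and 11732 CPM in the combined libraries, 23143 and 24309.6 CPM in the zoledronic acid libraries and 12871 to 22280.5 CPM in the libraries of G-CSF alone.

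Of 17 genes of the G-CSF receptor and its pathway, none rose and 2 fell, where 2.65% of all genes fell. The 2 were Cish and Bcl3, and both were called in at most 2 of 7 fits that left out a library. Csf3r, the receptor of G-CSF, had 163 and 195 CPM in the combined libraries and 279 and 198 CPM in the zoledronic acid libraries (−0.42 ± 0.19, edgeR adjusted p = 0.3). Socs3, the feedback inhibitor that G-CSF induces, had 15.2 and 27.0 CPM in the combined libraries against 10.4 and 8.42 CPM (edgeR adjusted p = 0.47). None of 10 genes of stem cell retention and mobilization was called. Cxcl12, the chemokine that holds stem cells in marrow, had 379.8 and 331 CPM in the combined libraries against 79.4 and 488 CPM in the zoledronic acid libraries, where the groups overlapped. Its receptor Cxcr4 had 257 and 216 CPM in the combined libraries and 242 and 187 CPM in the zoledronic acid libraries.

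Monocyte genes had no rise and 4 falls among 17. On log2(TPM + 1) 5 members were higher and 1 lower, and after centring 0 were higher and 3 lower. Of the 4 falls, only Ly6c2 was called in all 7 fits that left out a library. The others were called in at most 3 of them, and not with the 4 compared libraries alone. Ly6c2, the surface protein that marks inflammatory monocytes, had 18.4 and 24.5 CPM in the combined libraries against 574 and 469 CPM in the zoledronic acid libraries (−4.60 ± 0.36, edgeR adjusted p = 0.000411). Its neighbour and copy Ly6c1 had 19.5 and 20.7 CPM in the combined libraries against 3.53 and 4.57 CPM, and the sum of both stayed lower, at 37.9 and 45.3 CPM against 577 and 473 CPM. Ccr2, the chemokine receptor by which these monocytes leave marrow, had 79.3 and 85.9 CPM in the combined libraries against 123 and 138 CPM and missed the threshold (−0.66 ± 0.18, edgeR adjusted p = 0.0821). Resident macrophage genes had 2 falls among 16 (6 higher and 0 lower on log2(TPM + 1), 0 higher and 3 lower after centring), led by Hmox1, which breaks down haem (−0.98 ± 0.15, edgeR adjusted p = 0.00932), a call lost without combined replicate 3. The other macrophage gene that fell was called in 1 of 7 fits that left out a library. Dendritic cell genes had 1 rise, Irf4, and 1 fall, Ly6d, among 14, where 2.15% of all genes rose and 2.65% fell. Irf4 was called in 2 of 7 such fits and Ly6d in all 7.

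**Figure D4:**
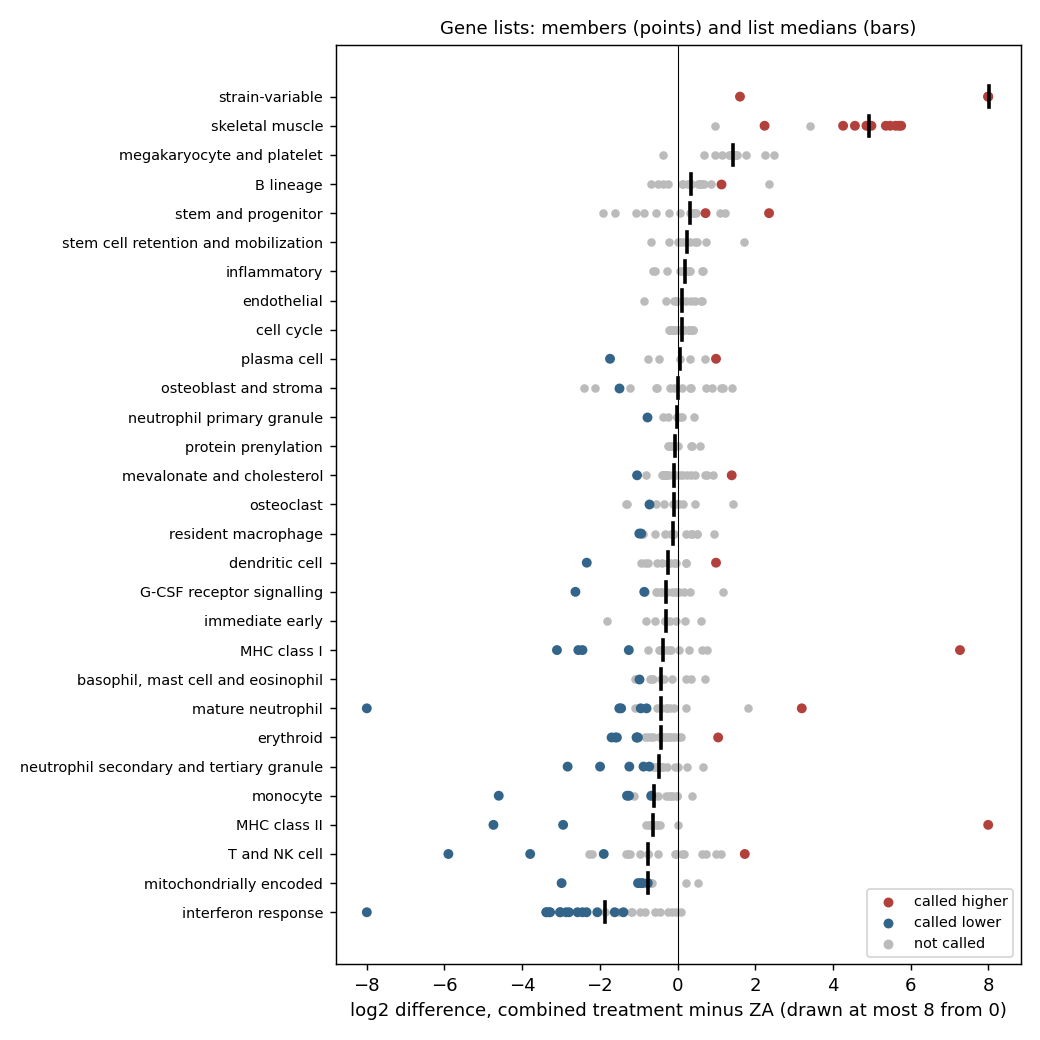
Log2 difference, combined minus zoledronic acid, of every tested member of the gene lists. Red points were called higher, blue points called lower and grey points not called, and black bars are list medians. The muscle list lies near 4.93 and the interferon list near −1.87, while most other medians lie within 1 of 0.

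Erythroid genes had 1 rise and 6 falls among 22, with a median of −0.44, and 5 members higher and 3 lower on log2(TPM + 1). Hbb-bs had 37916 and 36548 CPM in the combined libraries against 129463 and 112025 CPM in the zoledronic acid libraries (−1.70 ± 0.26, edgeR adjusted p = 0.00883). Hbb-bt, Hba-a1 and Hba-a2, the other adult globins, also fell, as did Alas2 and Cpox, enzymes of haem synthesis. The call on Hbb-bs was lost without either combined library and that on Hbb-bt without combined replicate 3. Hba-a1 and Alas2 were called in 3 of 7 fits that left out a library, Hba-a2 in 2 and Cpox in 4. Hba-a1, Hba-a2 and Alas2 were not called with the 4 compared libraries alone.

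Genes of megakaryocytes and platelets had a median of 1.43, with 14 of 15 above 0, and none was called. Pf4, platelet factor, had 233 and 142 CPM in the combined libraries against 17.1 and 121 CPM in the zoledronic acid libraries (1.43 ± 0.73, edgeR adjusted p = 0.356). Ppbp, another platelet chemokine, had 716 and 497 CPM against 32.6 and 223 CPM. Zoledronic acid replicate 2 was the low library at both genes.

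Of 19 B lineage genes, 1 was called, against 4.80% of all genes. Il7r, the interleukin-7 receptor of early B and T cells, rose, with 43.5 and 45.9 CPM in the combined libraries against 20.7 and 20.1 CPM in the zoledronic acid libraries (1.13 ± 0.18, edgeR adjusted p = 0.00981). Its call was lost without any one of the 4 libraries compared. Cd79a, part of the B cell receptor complex, missed the threshold. Of 21 T and natural killer cell genes, 1 rose and 3 fell, where 2.15% of all genes rose and 2.65% fell. Cd3d rose, with 26.0 and 25.4 CPM in the combined libraries against 8.53 and 6.97 CPM (1.73 ± 0.22, edgeR adjusted p = 0.00398). Cd3e, its neighbour on chromosome 9 and partner in the receptor, fell, but its call was lost without any one of the 4 libraries compared. The call on Cd3d was kept in all 7 fits that left out a library. Plasma cell genes had 1 rise and 1 fall among 7, each called in 2 of 7 fits that left out a library. The rise was Irf4, the same gene that rose on the dendritic cell list. Stem and progenitor genes had 2 rises among 15, Slamf1 and Myb, called in 1 and 2 of 7 fits that left out a library.

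The targets of zoledronic acid, which both groups had received, showed no common shift. Of 12 osteoclast genes, Mmp9, a collagenase also stored in neutrophil granules, was the 1 called. It fell by 0.73 on the log2 scale (edgeR adjusted p = 0.0441), and was called in 2 of 7 fits that left out a library. On log2(TPM + 1) its difference was 0.0205, against the median of 0.52 over all genes. Acp5, the acid phosphatase of osteoclasts, had 66.9 and 67.4 CPM in the combined libraries and 79.0 and 62.4 CPM in the zoledronic acid libraries. Of 22 mevalonate and cholesterol genes, 1 rose and 1 fell, each called in 1 of 7 fits that left out a library. None of 9 prenylation genes was called. Fdps, which encodes the enzyme blocked by zoledronic acid, had 33.1 and 42.2 CPM in the combined libraries and 51.9 and 40.5 CPM in the zoledronic acid libraries (edgeR adjusted p = 0.466). Stromal and osteoblast genes had 1 fall among 16. It was Col1a1, a chain of type I collagen, with 24.5 and 16.6 CPM in the combined libraries against 65.6 and 50.7 CPM. The call on Col1a1 was lost without either combined library or without zoledronic acid replicate 2.

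None of 21 cell cycle, 10 inflammatory, 10 immediate early or 11 endothelial genes was called. Mki67, a marker of dividing cells, had 1188 and 1228 CPM in the combined libraries against 895 and 938 CPM and missed the threshold (0.40 ± 0.17, edgeR adjusted p = 0.243). Of 13 mitochondrially encoded genes, 5 fell, each called in at most 2 of 7 fits that left out a library. Basophil, mast cell and eosinophil genes had 1 fall among 11, Prss34, called in 1 of 7 such fits. The 3 genes chosen for varying between strains all rose.

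The same question can be put without zoledronic acid, in marrow of G-CSF alone against untreated marrow, where neither group takes part in the contrast above. The G-CSF libraries did enter the spread estimate, filter and scaling behind the 707 calls, so the fits are not separate. Of the 707 genes called with zoledronic acid, 706 were tested there and 653 (92.5%) had the same sign, against 62.2% of all genes tested in both. There, 1746 of 14737 genes (11.8%) were called. The calls shared 468 genes, 66.2% of the first set, where 11.8% of all genes were called there, and 26.8% of the second, where 4.80% of all genes were called here, and 463 of them had the same sign. The 5 of opposite sign were Rapgef6, Fcrla, Cdnf, Gja5 and Gm10052. The libraries divided in the same strain-variable genes in both comparisons, so the shared part and genetic background cannot be told apart.

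Chil3 fell by 1.99 with zoledronic acid and by 1.87 without it, H2-Eb1 by 4.74 and 4.66, and Rsad2 by 2.34 and 2.27. Other interferon-stimulated genes had larger estimates with zoledronic acid than without it, a difference that missed the threshold. Oas3 fell by 3.37 with it and by 1.83 without it, and Ifit1 by 3.38 and 1.66, and the edgeR adjusted p of the difference between effects was 0.186 for Oas3 and 0.256 for Ifit1. In edgeR's test of that difference, 1 of 14737 genes (0.00679%) passed, while 1738 had an unadjusted p under 0.05 and DESeq2 called 257. The 1 gene was Gm20431, named because it was alone, with 4.83 and 7.08 CPM (scaled over 9 libraries) in the combined libraries against 3.31 and 4.30 CPM in the zoledronic acid libraries. Without zoledronic acid it had 0 CPM in the 3 libraries of G-CSF alone against 13.6 and 16.7 CPM in the untreated libraries. The count was 0 without zoledronic acid replicate 2 or 3, 3 without G-CSF replicate 1, 6 without combined replicate 1 and 10 without untreated replicate 1. Kbtbd11 had the fourth smallest p (adjusted p = 0.1 by edgeR), falling with zoledronic acid by 6.64 and differing by −1.12 ± 0.40 without it.

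**Figure D5:**
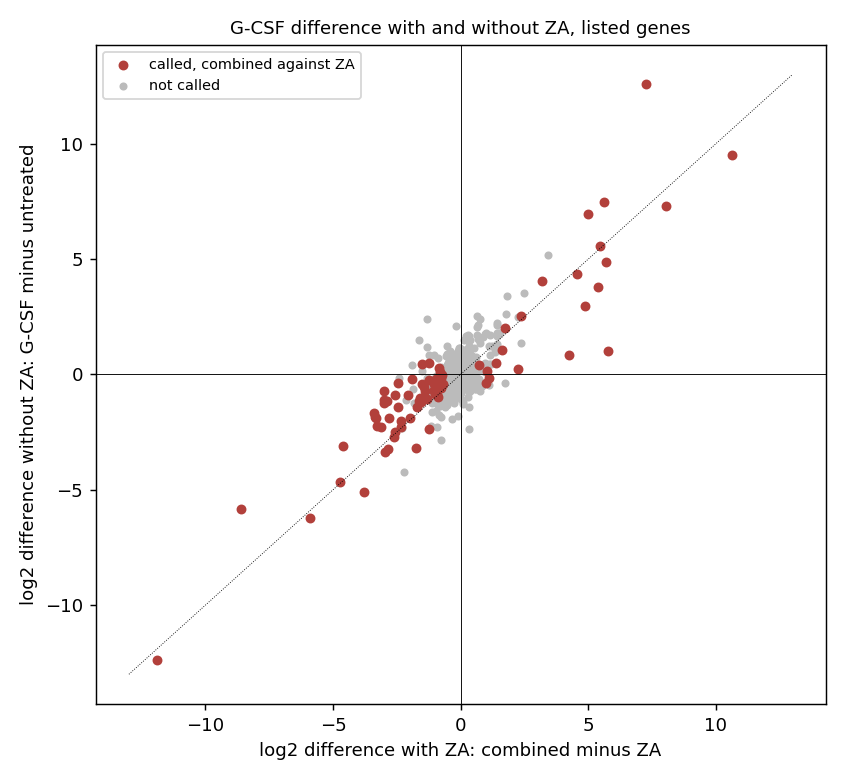
Log2 difference of listed genes with zoledronic acid (x axis, combined minus ZA) and without it (y axis, G-CSF minus untreated). Red points were called in combined against ZA, grey points were not, and the dotted line marks equal differences. Chil3 (−1.99 and −1.87) lies near the dotted line and Oas3 (−3.37 and −1.83) above it.

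The combined treatment was also given to mice whose myeloid and osteoclast precursors, sorted as lineage-negative CD115+ cells, were sequenced, in a table of 29 libraries normalized apart from the marrow table. Levels across the tables are therefore set side by side without a test. Csf1r, which encodes the surface protein (CD115) used to sort these precursors, had 43.1, 52.4 and 63.3 TPM (lowest, median and highest of 5 libraries) there, against 10.9 and 11.9 TPM in combined marrow. Other libraries of that table went against their labels: those labelled as second runs of G-CSF and untreated marrow replicate 2 had 56.8 TPM (G-CSF) and 71.9 TPM (untreated) of Csf1r, and whether names were exchanged was not tested. Among the 5 combined precursor libraries, replicates 1 and 4 had close values of Hbb-bs (413 and 400 TPM) and of Rps2 (623 TPM in both). Replicates 3 and 5 were also close at Hbb-bs (4672 and 4815 TPM) and Rps2 (775 and 799 TPM). Whether the 5 are separate samples was not tested. Lyz1, Rps2, Vill, H2-Ea-ps and H2-Bl stood closer to zoledronic acid marrow than to combined marrow in all 5 precursor libraries. Lyz1 had 0.698, 1.81 and 2.14 TPM there, against 332 and 408 TPM in combined marrow and 2.18 and 2.19 TPM in zoledronic acid marrow. Rps2 had 623, 775 and 989.9 TPM there, against 22.3 and 20.7 TPM in combined marrow and 583 and 549 TPM in zoledronic acid marrow. Vill had 51.5, 75.0 and 91.1 TPM there, against 0.226 and 0 TPM in combined marrow and 46.4 and 17.0 TPM in zoledronic acid marrow. H2-Ea-ps was at 0 in all 5, and H2-Bl reached 0.235 TPM, against 39.4 and 46.4 TPM in combined marrow. Fam166a had 0.0128, 8.43 and 13.6 TPM in the 5 precursor libraries. In libraries labelled as precursors without G-CSF it had 66.3 TPM (untreated replicate 7) and 67.6 TPM (zoledronic acid replicate 7). H2-Eb1 lay between the marrow groups, with 6.45, 10.7 and 11.7 TPM there, against 2.43 and 3.36 TPM in combined marrow and 35.9 and 57.2 TPM in zoledronic acid marrow. Ly6c2 was above both, with 1232, 1682 and 2370 TPM there, against 20.5 and 29.6 TPM in combined marrow and 383 and 340.4 TPM in zoledronic acid marrow. Second runs of combined precursor replicates 1 and 3 did not all stand with the 5 libraries. The second run of replicate 3 had 223 TPM of Lyz1, 29.5 TPM of H2-Bl, 1.82 TPM of H2-Ea-ps, 7.30 TPM of Ifi202b and 47749 TPM of Hbb-bs, while that of replicate 1 had 8.91 TPM of Lyz1 and 2674 TPM of Hbb-bs. In the 5 libraries Hbb-bs had 400.3, 809.5 and 4815 TPM.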

How the data were processed

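RNA of whole marrow was sequenced with the NEB Ultra kit, per the labels' protocols. Per the submitters' processing notes, Salmon (version not given in the sources used here), DESeq2 1.16.1 and build mm10 were used. The authors deposited estimated counts and TPM per Ensembl gene. TPM values are per length and keep no depth. No other processing step is given in the sources used here. Of 47729 gene IDs, 47224 matched GENCODE vM21.

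Estimated counts were rounded to whole numbers, scaled by TMM and tested with edgeR 4.0.16 (R 4.3.3) after filterByExpr (minimum count 10, total 15), with group as the only term, over 7 libraries (9 for the difference between effects). DESeq2 1.42.0 and limma 3.58.1 served as alternatives. CPM values are TMM-scaled. Total counts ran from 7083851 to 9234144 in the 4 libraries compared, and 3 counts are 0.325 to 0.423 CPM before TMM scaling. On simulated data with 14737 genes, 100 genes were changed 2-fold and 100 were changed 4-fold, all averaging over 5 CPM. In this comparison edgeR recovered 17% of the 2-fold and 75% of the 4-fold changes, and 8.91% of its calls were false. Recovery at lower levels was not simulated. For the difference between effects it recovered 3% and 51%, and 10% of its calls were false. Copies were found with BLAST 2.17.0 among the transcripts of each gene, and their sums were not tested. Promoters came from RefSeq (GRCm38.p6).

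Genes named by rule were the 12 increases and 12 decreases with the largest log2 differences among called, non-overlapping protein-coding genes averaging 5 CPM or more and not set apart, with named symbols, and the 6 most abundant protein-coding genes set apart on each side. Members of 29 gene lists were named besides, and the 5 genes of opposite sign and Gm20431 were named after their values were seen. The members and lists were chosen with earlier results of these data known. Alternatives were another test, scaling, filter, library set and scale, and each library left out in turn. Alternatives chosen after seeing the data were centring each library on its median, and leaving out globin, mitochondrial and small RNA genes. A few members of these lists are counted but not reported here by name.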

Additional observations from a re-analysis of the deposited data

Results flagged for a closer look

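Gm20431 was the 1 gene whose G-CSF effect differed with and without zoledronic acid in edgeR's test of the difference (10.8 ± 0.77 on the log2 scale, edgeR adjusted p = 0.0206). The size depends on the 3 libraries of G-CSF alone, which all had 0 counts.

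In the library labelled as the second run of zoledronic acid marrow replicate 2, which is outside the comparison and correlated with that replicate at 0.949 where its first run reached 0.9993, Fam166a had 119 TPM, Acta1 40.1 TPM and Ckm 40.0 TPM. In both untreated marrow libraries Fam166a had 0 TPM. Among libraries labelled as precursors without G-CSF, untreated replicate 7 had 66.3 TPM of Fam166a, 47.8 TPM of Acta1 and 30.1 TPM of Ckm. Zoledronic acid replicate 7 had 67.6 TPM of Fam166a, 2.41 TPM of Acta1 and 2.03 TPM of Ckm. Both had high Hbb-bs, at 124051 and 189753 TPM. Every other such library had at most 0.0264 TPM of Fam166a.

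Among 12 genes whose spread over the 5 precursor libraries of the combined treatment was examined, 1 had a library far from the others. Ifi202b had 0.0425 TPM in that library and 0 TPM in the rest, so any value above 0 stands out. The value lies below the limit of 0.1 TPM used for genes set apart. A flag can arise by chance alone, and how often it does so was not tested.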

How the results depend on the processing

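No paired analysis was possible because the combined and zoledronic acid groups share only replicate number 3. The total of 707 calls became 1103 with DESeq2, 1831 with no filter, 6011 on log2(TPM + 1), 5940 on log2(TPM + 0.1) and 1695 after centring, and ran from 271 to 941 with 1 library left out. The 317 higher genes became 871 with no filter, 211 with the 4 compared libraries alone, 5734 and 5690 on the TPM scales and 207 with the genes set apart taken out first, and ran from 155 to 374. The 390 lower genes became 641 with DESeq2, 960 with no filter, 250 on log2(TPM + 0.1) and 1351 after centring, and ran from 113 to 567. Outside the genes set apart, the 587 calls became 973 with DESeq2, 1592 with no filter, 5822 and 5720 on the TPM scales and 1563 after centring, and ran from 216 to 819. The 81 calls among listed genes became 144 with no filter and 176 and 171 on the TPM scales, and ran from 36 to 90. The interferon list had 7 to 17 calls with 1 library left out, and the muscle list 7 to 10. The 1194 genes set apart became 2464 to 2700 with 1 library left out, since 1 library then stands for a group. The 1 call on the difference between effects became 257 with DESeq2 and 746 with no filter, and ran from 0 to 10. Mmp9 turned to 0.0205 on log2(TPM + 1) and 0.0206 on log2(TPM + 0.1), and Ctss to 0.0634 and 0.0649, where all genes shift by a median of 0.52 and 0.71. The cause of the other changes was not tested. A left-out library that leaves 1 in a group assumes that it varies like the other groups. Depth limits genes near 3 counts.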
